A study of Rattus norvegicus with 4 samples.

Results

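The genes described here are 44 rat genes of sugar breakdown and of the response to low oxygen: those of glycolysis, of the pentose phosphate pathway, of oxygen sensing by the HIF factors, and genes known to be induced by hypoxia. They were picked by name, with earlier results of these data known, and every named probe of each was taken. Of the 44 genes, 43 had a probe with a name, 67 probes in all, out of 16581 named genes, 21109 named probes and 45598 probes on the array. Egln1, a prolyl hydroxylase of the oxygen-sensing system, had no named probe and was not analysed here. The cells were NR8383, a rat alveolar macrophage line derived from lung lavage of a normal rat, at 20 passages. They were exposed for 4 h to Printex90, a commercial carbon black, at 0.9 cm2/cm2, under a condition that the labels give only by the abbreviation ALI. Total RNA of 4 biological replicates was measured on 4 arrays of 1 colour. Unexposed cells are part of the study's design and were not analysed here. The values therefore describe exposed cells alone and say nothing of an effect of the particles, and the comparisons are between the 4 exposed cultures or of these genes beside all others.

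Glycolysis splits glucose into pyruvate and yields ATP without oxygen, and the pentose phosphate pathway diverts glucose 6-phosphate to make NADPH and ribose. The HIF factors are pairs of an alpha subunit, which prolyl hydroxylases mark for destruction by the VHL ligase while oxygen is present, and a stable beta subunit. In low oxygen, or in macrophages activated by inflammatory signals, the alpha subunit accumulates and raises transcription of glucose transporters, glycolytic enzymes and genes such as Bnip3 and Adm through short promoter motifs. Control of the alpha subunit is largely at the protein, which arrays of RNA do not measure.

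A gene's level is the log2 processed intensity of its brightest probe minus the log2 intensity at the 75th percentile of the same array, which lay between 83.77 and 127.1. Probes differ in how strongly they hybridise, so levels are compared between arrays for 1 gene and not between genes. A gene was counted as detected on an array when a spot of any of its probes was flagged well above background by the scanner software. By array, 8917 to 9985 named genes were detected, and 0 spots were saturated. Of the macrophage markers 13 of 15 were detected on all 4 arrays, with Adgre1 and Marco on some arrays only, and these 13 had levels between -1.46 and 9.50. Among markers of other cells, 0 of 10 epithelial, 1 of 8 fibroblast, 3 of 7 endothelial, 4 of 7 T cell, 1 of 3 B cell, 2 of 6 neutrophil and 2 of 5 erythroid markers were detected on all 4 arrays. Among these markers, Epcam, Col1a1, Kdr, Cd3e, S100a8 and Hbb were detected on no array, whereas Cd3d, Pecam1, Cdh5, Vwf, Dcn and Camp were detected on all 4. The 2 detected neutrophil markers had levels between 2.56 and 3.67, and the 2 erythroid ones between -1.91 and 2.27. The part of other cell types in the values was not tested. In such bulk samples, fewer cells of a type and less RNA per cell cannot be told apart.

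Most of the pathway was detected. On all 4 arrays 38 of 43 genes were well above background (88.4%), against 8424 of 16581 named genes (50.8%). By probe the counts were 58 of 67 (86.6%), against 10355 of 21109 (49.1%). On no array were 3 genes detected, Epas1, Hk1 and Pfkm, while 36.9% of all named genes were detected on none. Hif1an and Egln3 were detected on 2 arrays each. A detected enzyme was present for 10 of the 10 steps of glycolysis from glucose to pyruvate, and for 6 of the 6 pentose phosphate steps represented among these genes. The plot of levels by gene shows the 43 genes on the 4 arrays.

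**Figure D1:**
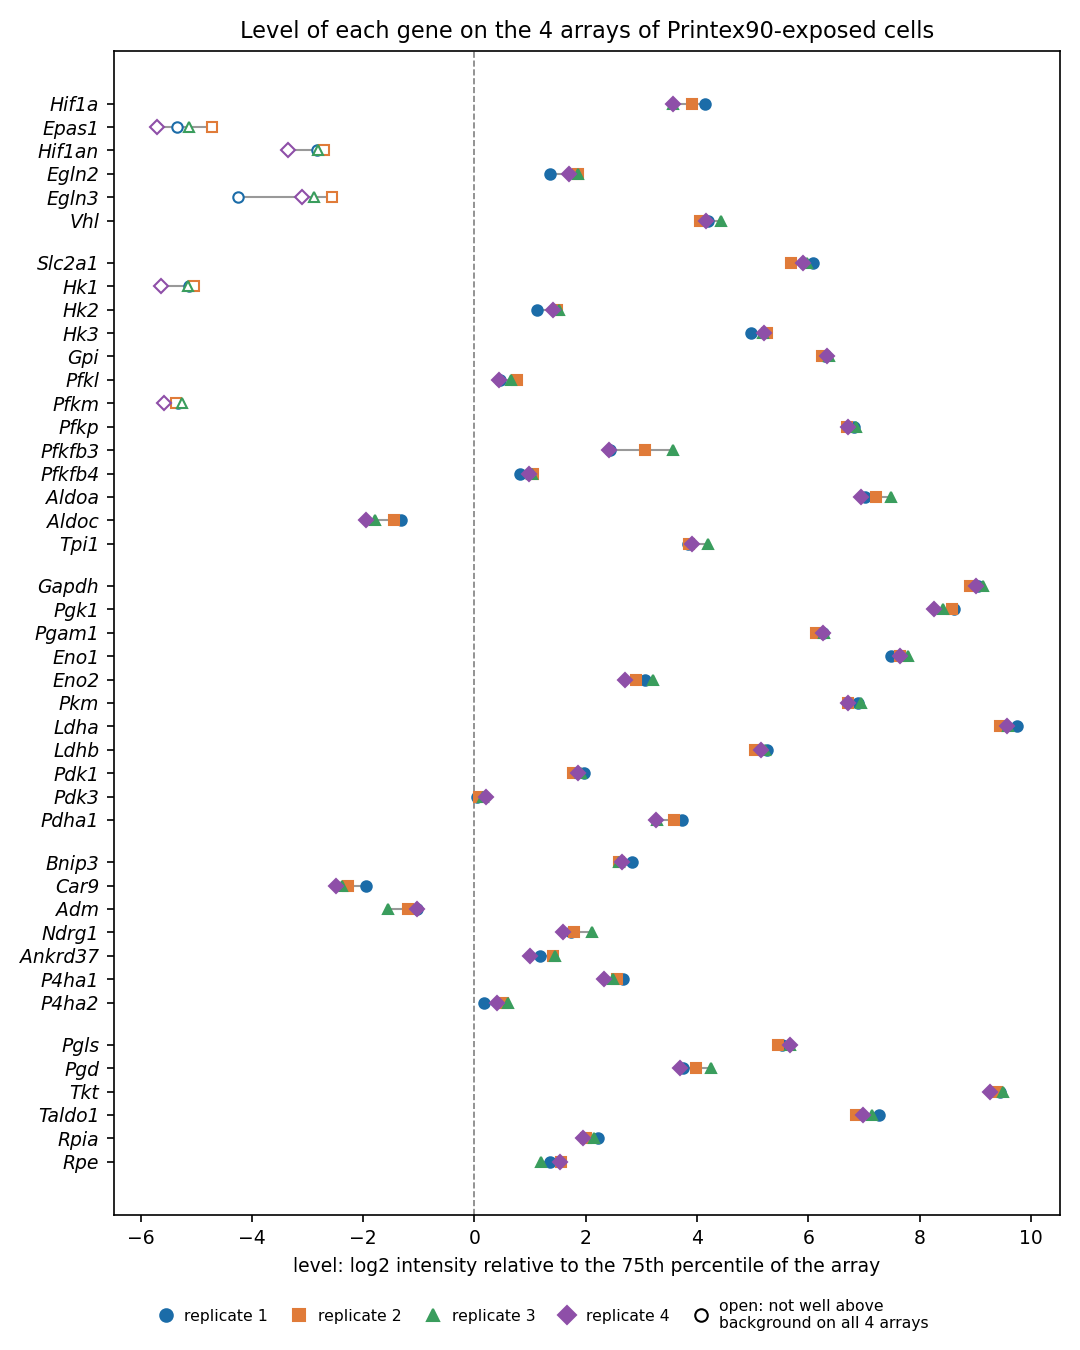
Level of each of the 43 genes on the 4 arrays, as log2 intensity relative to the array's 75th percentile (dashed line at 0), grouped from top to bottom into oxygen sensing, glucose entry and upper glycolysis, lower glycolysis and pyruvate fate, hypoxia-induced genes, and the pentose phosphate pathway. Each symbol is 1 array, and open symbols mark the 5 genes not well above background on all 4 arrays. Pfkfb3 has the widest spread among the 38 detected genes as scaled here.

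The HIF motif was looked up in the promoters as a description of the sequence. The letters searched were ACGTG and GCGTG and their reverse complements CACGT and CACGC, so both strands were covered, in the 250 bases before each gene's start in the RefSeq promoters of GRCr8. ACGTG and CACGT overlap where the sequence reads CACGTG, which counts as 2 matches. For 41 of the 44 genes a promoter was matched, 45 promoters in all, with none for Pgk1, Ndrg1 and Pgls. A match was found in 26 of 45 promoters (57.8%), against 36.7% of all 33469 promoters and 55.6% of the promoters of genes detected on all 4 arrays. The share over these genes was thus near that of detected genes in general. It varied by role, with 10 of 11 promoters (90.9%) in lower glycolysis, 4 of 6 (66.7%) in the hypoxia-induced genes, 9 of 16 (56.2%) in upper glycolysis, 2 of 7 (28.6%) in oxygen sensing and 1 of 5 (20.0%) in the pentose phosphate pathway. Base composition differs between the larger sets: the median promoter held 16 CpG pairs and 62.8% G and C for these genes, 16 and 59.6% for detected genes, and 5 and 51.2% for all promoters. By role, oxygen sensing had the highest medians, 27 and 73.6%, with a share of 28.6%, and lower glycolysis had 19 and 63.6%. Lower glycolysis and the hypoxia-induced genes had higher medians of both, and higher shares, than upper glycolysis and the pentose phosphate pathway. The part of composition in these shares was not tested. In the sequences printed below, capitals mark the matches, and each stretch runs along the gene's strand from 12 bases before the first match to 12 after the last, or to the gene's start where that comes sooner.

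Oxygen sensing was represented by Hif1a, while the second alpha subunit was not detected. Hif1a, the alpha subunit that is stabilised in low oxygen, had levels of 4.14, 3.92, 3.57 and 3.56 on replicates 1 to 4 (3.80 ± 0.28, mean ± SD, n = 4, as for all means below). It was highest on replicate 1 and close to equal on replicates 3 and 4. A second Hif1a probe lay far lower, at -2.39, -1.70 and -2.22 on replicates 1 to 3, with its spot on replicate 4 left out. The probes thus differed by 5.90 in mean level. On these 3 arrays the brighter probe was highest on replicate 1 and the dimmer one on replicate 2, so the order of the arrays for Hif1a depended on the probe. Epas1, the alpha subunit HIF-2 alpha, had intensities of 2.46, 3.18, 2.89 and 2.43 and was not well above background on any array. Its promoter held no match, whereas that of Hif1a held 3.

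The Hif1a promoter is shown because it is the detected alpha subunit. It lies at chr6:98359657-98359750 on the plus strand of GRCr8.
Hif1a: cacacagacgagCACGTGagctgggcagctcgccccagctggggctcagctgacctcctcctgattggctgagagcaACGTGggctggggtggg

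Vhl, the substrate receptor of the ligase that removes hydroxylated HIF alpha, had levels of 4.20, 4.06, 4.43 and 4.17 (4.21 ± 0.15). Egln2, one of the prolyl hydroxylases, had 1.36, 1.87, 1.86 and 1.70 (1.70 ± 0.24). Replicate 1 was the low array for Egln2. Egln3, a prolyl hydroxylase that HIF itself induces, was near background at -4.25, -2.56, -2.88 and -3.10, and was detected on 2 arrays. Hif1an, the asparaginyl hydroxylase that blocks HIF's transcriptional activity, lay at -2.83, -2.71, -2.81 and -3.34 and was also detected on 2 arrays. Differences between arrays in these last genes lie where the signal is close to background and were not read.

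Glucose entry and the upper part of glycolysis had 11 of 13 genes detected on all 4 arrays, and which isoform was detected differed by step. Slc2a1, the glucose transporter GLUT1, had levels of 6.08, 5.68, 5.97 and 5.91 (5.91 ± 0.17), with replicate 2 lowest. Of the hexokinases, which trap glucose by phosphorylation, Hk3 had 4.97, 5.25, 5.18 and 5.20 (5.15 ± 0.13). Hk2 had 1.13, 1.49, 1.53 and 1.42 (1.39 ± 0.18). Both hexokinases were lowest on replicate 1, with the other 3 arrays close together. Hk1, the hexokinase of brain and red cells, had intensities of only 2.85, 2.54, 2.85 and 2.57 and was detected on no array.

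The Slc2a1 stretch, at chr5:138002357-138002521 on the plus strand of GRCr8, is printed because this transporter is a textbook HIF-1 target and holds 4 matches.
Slc2a1: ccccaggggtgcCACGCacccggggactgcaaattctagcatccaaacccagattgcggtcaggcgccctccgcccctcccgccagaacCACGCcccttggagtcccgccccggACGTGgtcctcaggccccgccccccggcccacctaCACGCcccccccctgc

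Gpi, the isomerase that makes fructose 6-phosphate, differed little between arrays, at 6.30, 6.25, 6.37 and 6.34 (6.31 ± 0.05). Phosphofructokinase commits sugar to glycolysis and has 3 subunits. Its platelet form Pfkp had levels of 6.82, 6.70, 6.85 and 6.72 (6.77 ± 0.08). The liver form Pfkl had 0.45, 0.77, 0.66 and 0.45 (0.58 ± 0.16). The muscle form Pfkm, at -5.33, -5.35, -5.25 and -5.58, was not detected on any array, so the subunits detected were the platelet and liver forms. Pfkp rests on 1 spot in a bright region of replicate 4, described below.

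The bifunctional enzymes that set fructose 2,6-bisphosphate, the activator of phosphofructokinase, include the gene with the widest spread. Pfkfb3, the form with the highest kinase activity and a HIF-1 target, had levels of 2.45, 3.06, 3.56 and 2.42 (2.87 ± 0.55). Its intensities were 541.8, 697.7, 1192 and 681.9. Replicate 3 was highest, and the range of 1.14 in level corresponds to 2.20-fold. Pfkfb4, a related form also induced by HIF-1, had 0.82, 1.06, 1.03 and 0.98 (0.97 ± 0.11). By this probe the spread of Pfkfb4 was small on the arrays where that of Pfkfb3 was large. A second, dimmer Pfkfb4 probe had -2.77, -2.38, -3.64 and -2.08, with an SD of 0.68, and was detected on 2 arrays. The contrast between these genes thus depended on the probe.

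The Pfkfb3 stretch, at chr17:71944879-71944908 on the plus strand of GRCr8, is printed because this gene had the widest spread and its promoter has a palindromic pair of matches close to the start.
Pfkfb3: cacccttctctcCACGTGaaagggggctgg

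The Pfkfb3 value on replicate 3 sat in a bright patch of that array. Among the 112 spots within 5 rows and columns of its spot, 53 were well above background, and their median deviation from their own 4-array means was -0.05, 0.01, 0.32 and -0.32. The spot itself deviated by -0.43, 0.19, 0.69 and -0.45. Over all 112 surrounding spots, dim ones included, the median deviation was -0.40, -0.08, 0.93 and -0.46. Surrounding spots were therefore high on replicate 3 and low on replicate 4 as well, by less than the Pfkfb3 spot among the 53 and by more among the 112. A second Pfkfb3 probe had levels of -3.30, -2.15, -3.10 and -2.36, was detected on 2 arrays and was highest on replicate 2. Without replicate 3 the SD of Pfkfb3 was 0.36. The part of the bright patch in its spread was not tested.

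Of the aldolases, which split fructose 1,6-bisphosphate, Aldoa had levels of 7.03, 7.22, 7.48 and 6.95 (7.17 ± 0.23). Aldoc, the form best known from brain, had -1.32, -1.45, -1.79 and -1.95 (-1.63 ± 0.29). Aldoa was highest on replicate 3, where its spot also lay in a bright block, with the spot deviating by 0.31 there. The median deviation around it on that array was 0.15 over the 48 spots well above background and -0.01 over all 113. Tpi1, which interconverts the triose phosphates, had 3.84, 3.85, 4.20 and 3.91 (3.95 ± 0.17), with replicate 3 above the other 3 arrays.

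Lower glycolysis and the fate of pyruvate were detected in full, 11 of 11 genes on all 4 arrays. By the probe used for each gene, the SDs lay between 0.07 and 0.23. Among their other probes detected on all 4 arrays, the SDs ran from 0.06, for 1 of Gapdh, to 0.45, for 1 of Ldha. Gapdh, the dehydrogenase of the pathway, had levels of 9.05, 8.90, 9.15 and 9.02 (9.03 ± 0.10). Pgk1, which makes the first ATP of the lower part of the pathway, had 8.61, 8.58, 8.43 and 8.26 (8.47 ± 0.16). For Gapdh the 4 arrays lay within 0.25 of each other, and for Pgk1 replicate 4 was lowest. Pgam1, the mutase that moves the phosphate, had 6.27, 6.13, 6.29 and 6.27 (6.24 ± 0.07), with replicate 2 below 3 nearly equal arrays. Eno1, the ubiquitous enolase, had 7.48, 7.65, 7.78 and 7.65 (7.64 ± 0.12). Eno2, the enolase known from neurons, had 3.07, 2.90, 3.20 and 2.70 (2.97 ± 0.22). Pkm, pyruvate kinase, had 6.89, 6.71, 6.95 and 6.71 (6.82 ± 0.13). By the probes used, replicate 3 was highest for Eno1, Eno2 and Pkm. A second Eno2 probe, at -0.05, 0.63, 0.65 and 0.9, was highest on replicate 4. Of the 4 Pkm probes, 2 were highest on replicate 3, 1 on replicate 2 and 1 on replicate 4.

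Pyruvate is turned to lactate or enters the mitochondrion. Ldha, the lactate dehydrogenase subunit that favours lactate production, had levels of 9.75, 9.44, 9.58 and 9.57 (9.58 ± 0.13). Ldhb, the subunit that favours the reverse reaction, had 5.25, 5.04, 5.22 and 5.15 (5.16 ± 0.10). Both were highest on replicate 1 and lowest on replicate 2. Pdha1, the catalytic subunit of pyruvate dehydrogenase, had 3.73, 3.59, 3.29 and 3.26 (3.47 ± 0.23). The kinases that switch that enzyme off were Pdk1, a HIF-1 target, at 1.97, 1.77, 1.92 and 1.86 (1.88 ± 0.09), and Pdk3, at 0.05, 0.09, 0.16 and 0.21 (0.13 ± 0.07). By these probes the kinases differed little between arrays, while Pdha1 was higher on replicates 1 and 2 than on replicates 3 and 4. The Pdha1 spot used lies in a bright region of replicate 4. Other Pdha1 probes, at 1.71, 1.45, 1.68 and 1.53 and at 0.56, 0.87, 0.77 and 0.69, did not show this order. The other Pdk1 probes had SDs of 0.38, 0.11 and 0.54, so its spread depended on the probe.

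Ldha and Pdk1 are printed as the HIF-1 targets at the branch point between lactate and the mitochondrion. Their stretches lie on the plus strand of GRCr8, at chr1:106507993-106508091 for Ldha and chr3:77113371-77113476 for Pdk1. That of Ldha opens with a CACGTG followed closely by a CACGT.
Ldha: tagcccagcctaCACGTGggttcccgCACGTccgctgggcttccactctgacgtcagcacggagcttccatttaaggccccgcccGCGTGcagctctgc
Pdk1: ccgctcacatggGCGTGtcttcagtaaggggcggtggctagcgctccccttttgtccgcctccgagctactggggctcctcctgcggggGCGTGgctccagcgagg

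The hypoxia-induced genes outside glycolysis were detected on all 4 arrays, 7 of 7. Bnip3, a mitochondrial protein of mitophagy and cell death, had levels of 2.82, 2.60, 2.59 and 2.66 (2.67 ± 0.11). P4ha1 and P4ha2 are subunits of the collagen prolyl hydroxylase. P4ha1 had 2.66, 2.56, 2.48 and 2.34 (2.51 ± 0.14), and P4ha2 had 0.17, 0.51, 0.60 and 0.40 (0.42 ± 0.18). By the probes used, replicate 1 was the highest array for Bnip3 and P4ha1 and the lowest for P4ha2. A second Bnip3 probe, at 0.61, 0.37, 0.62 and 0.67, was highest on replicate 4. Ndrg1, a stress-response gene, had 1.75, 1.79, 2.12 and 1.59 (1.81 ± 0.22). Ankrd37, a small ankyrin-repeat protein, had 1.19, 1.41, 1.45 and 0.997 (1.26 ± 0.21). Both were highest on replicate 3 and lowest on replicate 4. Car9, the carbonic anhydrase often used as a marker of hypoxic tumours, had -1.94, -2.28, -2.37 and -2.48 (-2.27 ± 0.23). Adm, the vasodilator adrenomedullin, had -1.03, -1.20, -1.55 and -1.03 (-1.20 ± 0.25). Car9 and Adm were flagged well above background but lay below the 75th percentile of the arrays. Car9 rests on 1 spot with intensities of 25.9, 17.3, 19.5 and 22.7, so its differences lie where the signal is close to background.

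Bnip3, Ankrd37 and P4ha2 are printed as the genes of this group with 4, 4 and 5 matches. They lie in GRCr8 at chr1:203155036-203155082 on the minus strand, chr16:53001259-53001501 on the plus strand and chr10:38743720-38743869 on the plus strand, in that order. Bnip3 and Ankrd37 each hold a CACGTG, and P4ha2 holds none.
Bnip3: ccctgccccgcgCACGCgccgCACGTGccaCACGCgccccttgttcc
Ankrd37: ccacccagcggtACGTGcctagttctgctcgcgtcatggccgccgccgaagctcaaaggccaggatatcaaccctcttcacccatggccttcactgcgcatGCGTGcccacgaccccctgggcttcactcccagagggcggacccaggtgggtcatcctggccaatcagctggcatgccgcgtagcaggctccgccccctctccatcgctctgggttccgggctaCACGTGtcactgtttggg
P4ha2: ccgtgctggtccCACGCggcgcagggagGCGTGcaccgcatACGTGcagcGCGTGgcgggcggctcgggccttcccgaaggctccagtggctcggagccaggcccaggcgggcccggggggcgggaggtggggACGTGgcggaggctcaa

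The pentose phosphate genes were detected on all 4 arrays, 6 of 6. In the oxidative branch, Pgls, the lactonase, had levels of 5.54, 5.45, 5.66 and 5.67 (5.58 ± 0.11), and Pgd, the dehydrogenase that yields the second NADPH, had 3.75, 3.98, 4.25 and 3.70 (3.92 ± 0.25). Pgd was highest on replicate 3. In the branch that returns sugars to glycolysis, Tkt, transketolase, had 9.45, 9.39, 9.50 and 9.27 (9.40 ± 0.10). Taldo1, transaldolase, had 7.27, 6.87, 7.14 and 6.98 (7.07 ± 0.18). Taldo1 was highest on replicate 1, and for Tkt replicate 4 lay below the other 3 arrays. Rpia, which makes ribose 5-phosphate, had 2.22, 2.01, 2.14 and 1.96 (2.08 ± 0.12). Rpe, the epimerase of the same branch, had 1.36, 1.57, 1.20 and 1.55 (1.42 ± 0.17), with replicate 3 lowest. Taldo1 had the only promoter of this group with a match, at chr1:205923017-205923188 on the plus strand of GRCr8, and is printed for that reason.
Taldo1: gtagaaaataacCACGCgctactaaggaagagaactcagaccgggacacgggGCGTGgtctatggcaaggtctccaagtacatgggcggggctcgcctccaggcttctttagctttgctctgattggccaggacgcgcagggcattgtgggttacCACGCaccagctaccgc

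Between the 4 cultures these genes varied about as much as detected genes in general. The median SD was 0.160 over the 38 detected genes, from 0.052 to 0.545, against 0.165 over all 8424 detected genes, whose 5th and 95th percentiles were 0.060 and 0.411. An SD of 0.165 on the log2 scale corresponds to 1.12-fold. Of the 38 genes, 20 lay below the median of all detected genes and 7 had an SD under 0.1. Pfkfb3 was the 1 gene of 38 with an SD above 0.5, against 2.43% of all detected genes. With the mean of its probes in place of the brighter one, its SD was 0.37 and below that value. In 1 gene of 38, Pgam1, an array stood apart from the other 3 by Dixon's ratio at its critical value for 4 samples, against 5.35% of all detected genes. By role the median SD was 0.24 in oxygen sensing (3 genes), 0.21 in the hypoxia-induced genes (7), 0.17 in upper glycolysis (11), 0.15 in the pentose phosphate pathway (6) and 0.12 in lower glycolysis (11). These groups are small, and their spreads were not tested against each other. The plot of spread against level sets the 38 genes among all detected genes.

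**Figure D2:**
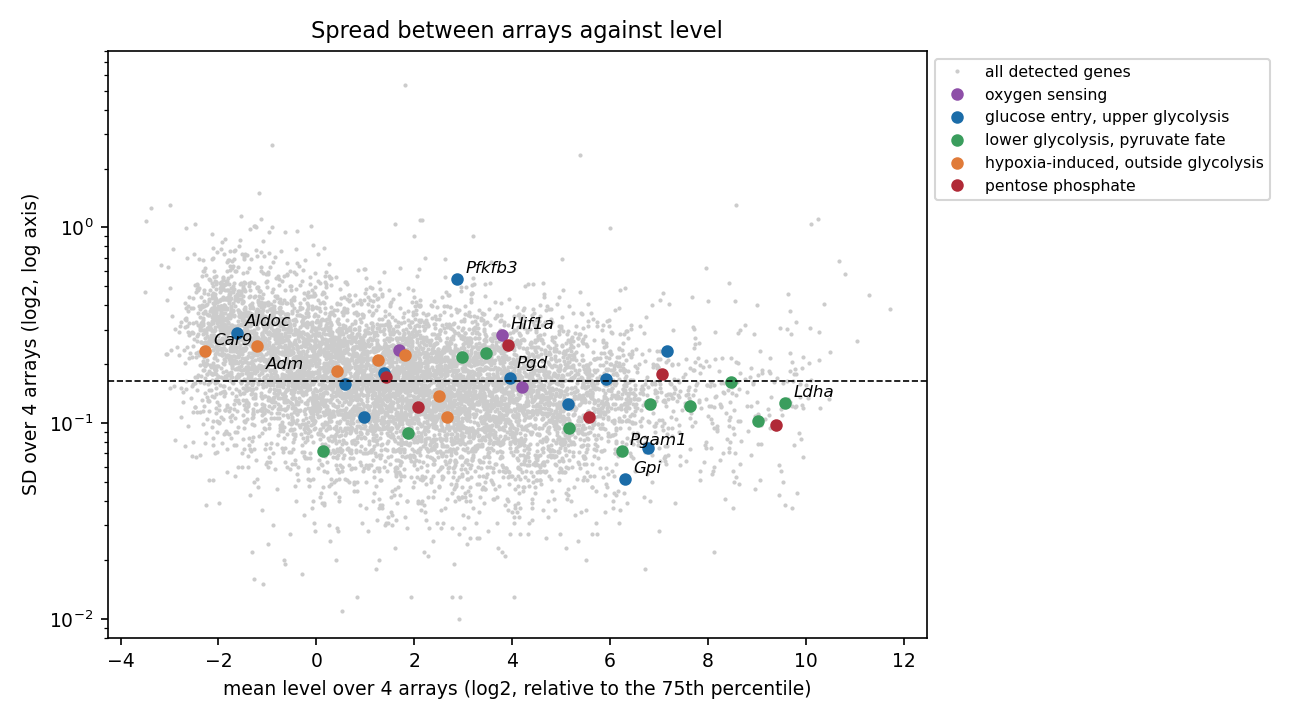
SD over the 4 arrays (log2, log axis) against the mean level of each detected gene. Grey points are the 8424 detected genes, coloured points the 38 genes by role, and the dashed line is the median SD of all detected genes, 0.165. The coloured points lie within the grey cloud, and Pfkfb3, at 0.55, stands highest among them.

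Repeated spots give the error of the measurement within an array. For 14 probes of 11 of these genes the array carries 10 spots each, which measure the same RNA again. Within an array the SD of these spots was 0.074 to 0.326 with a median of 0.116, which gives a standard error of the array mean of 0.024 to 0.107. Between arrays the SD was 0.072 to 0.290 with a median of 0.156. The SD between arrays holds the differences of culture, labelling and hybridisation together, and these cannot be told apart.

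Deviations from each gene's own mean were also summarised by role. On replicates 1 to 4 the median deviation was 0.15, 0.00, -0.03 and -0.17 for the 7 hypoxia-induced genes, and -0.13, 0.08, 0.07 and -0.04 for the 11 genes of upper glycolysis. In lower glycolysis it was 0.09, -0.11, 0.05 and -0.02, and in the pentose phosphate pathway 0.00, -0.04, 0.08 and -0.11. Oxygen sensing, with 3 genes, had -0.02, 0.12, 0.16 and -0.05. Over all 38 genes it was 0.03, -0.01, 0.07 and -0.04, against 0.03, -0.02, 0.03 and -0.03 over all detected genes. No test was made of these values. With normexp background correction the hypoxia-induced genes had 0.05, 0.02, 0.08 and 0.01, and upper glycolysis -0.18, 0.00, 0.06 and 0.06. Scaled to the array median they had 0.24, -0.26, 0.40 and -0.43, and -0.04, -0.18, 0.50 and -0.30, where all detected genes had 0.12, -0.28, 0.46 and -0.28. The deviations of the hypoxia-induced genes on replicates 1 and 4 thus depended on the processing.

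**Figure D3:**
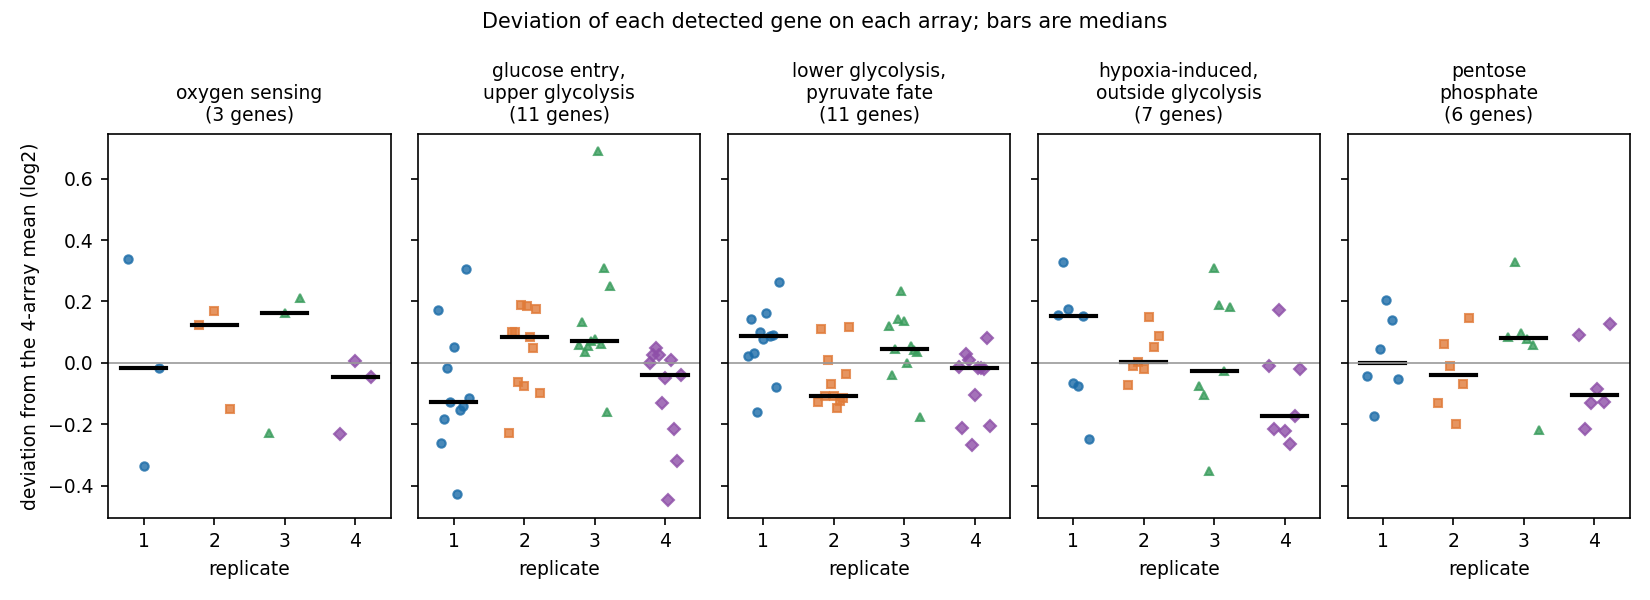
Deviation of each detected gene from its own 4-array mean (log2), by array and role, with a bar at the median of each role. Points are genes. The medians lie between -0.17 and 0.16. On replicate 1 the hypoxia-induced genes have their highest median and upper glycolysis its lowest. Neither holds with scaling to the array median, where all detected genes shift by 0.12, -0.28, 0.46 and -0.28. Upper glycolysis stays lowest on replicate 1 with quantile normalization (-0.16) and normexp (-0.18), while the hypoxia-induced genes are not highest there with normexp.

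Which array was highest was counted for each gene. Replicate 3 was the highest array for 17 of 38 genes (44.7%), replicate 1 for 14 (36.8%), replicate 2 for 5 (13.2%) and replicate 4 for 2 (5.26%). Among all detected genes the shares were 31.5%, 31.0%, 17.6% and 20.0% in the same order. The pattern depended on the processing. With quantile normalization 12, 15, 5 and 6 genes were highest on replicates 3, 1, 2 and 4, and with normexp background correction 11, 9, 2 and 16 were. Scaled to the array median, 33 were highest on replicate 3, where the median deviation of all detected genes was then 0.46. Neither the lead of replicate 3 nor the low share of replicate 4 held across these settings.

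Of the 43 genes, 11 had more than 1 probe, and the probes of a gene did not always rank the arrays the same way. Pkm had 4 probes with means from 6.82 down to -0.68, and Pdk1 had 4 from 1.88 down to -2.61. Ldha had 3 probes from 9.58 down to 6.06, of which 2 were highest on replicate 1 and the probe with 10 spots on replicate 3. Gapdh had 8 probes from 9.03 down to 6.03, with 5 of 8 highest on replicate 3 and 4 of 8 lowest on replicate 4. The 3 probes of Eno1 were each highest on replicate 3. Replicate 3 was thus the highest array for 5 of 8 Gapdh, 3 of 3 Eno1 and 1 of 3 Ldha probes. It was also the highest for 2 of 4 Pkm and 1 of 2 Eno2 probes. The lowest array differed among the probes of each of these genes.

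**Figure D4:**
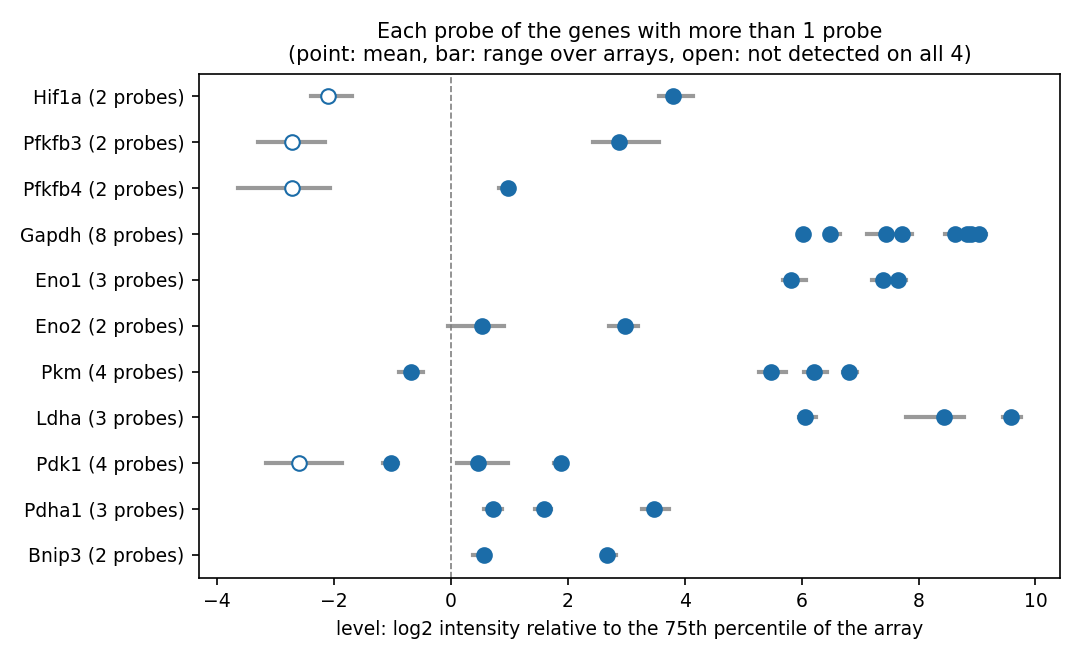
Level (log2 intensity relative to the array's 75th percentile, dashed line at 0) of every probe of the 11 genes that have more than 1. Each point is the mean of 1 probe over the arrays, its bar the range over the arrays, and open points mark probes not detected on all 4. Probes of a gene lie up to 7.50 apart, for Pkm, which exceeds the range of any of them over the arrays.

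The deviations of these spots ran along with those of the spots around them. For 31 spots of 28 detected genes with 1 or 2 spots, the median deviation of the well-measured spots around them ranged from -0.32 to 0.32. Across the 124 pairs of spot and array, the deviation of the spot and that of its neighbours had a Pearson correlation of 0.624, and 0.537 without Pfkfb3. This is a description, since the pairs share 4 arrays and their scaling. Bright blocks held 0.397%, 2.23%, 2.84% and 2.61% of spots on replicates 1 to 4, and 7.88% of spot positions over the 4 arrays together. Of the 43 genes 13 had a spot in such a block, 5 of them with 1 or 2 spots in all and the others with 10. A gene with 10 spots has more positions that can fall in a block, so this count cannot be set beside the 7.88%. The share of all named genes with a spot in such a block was not counted. The part of position in the differences between cultures was not tested.

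**Figure D5:**
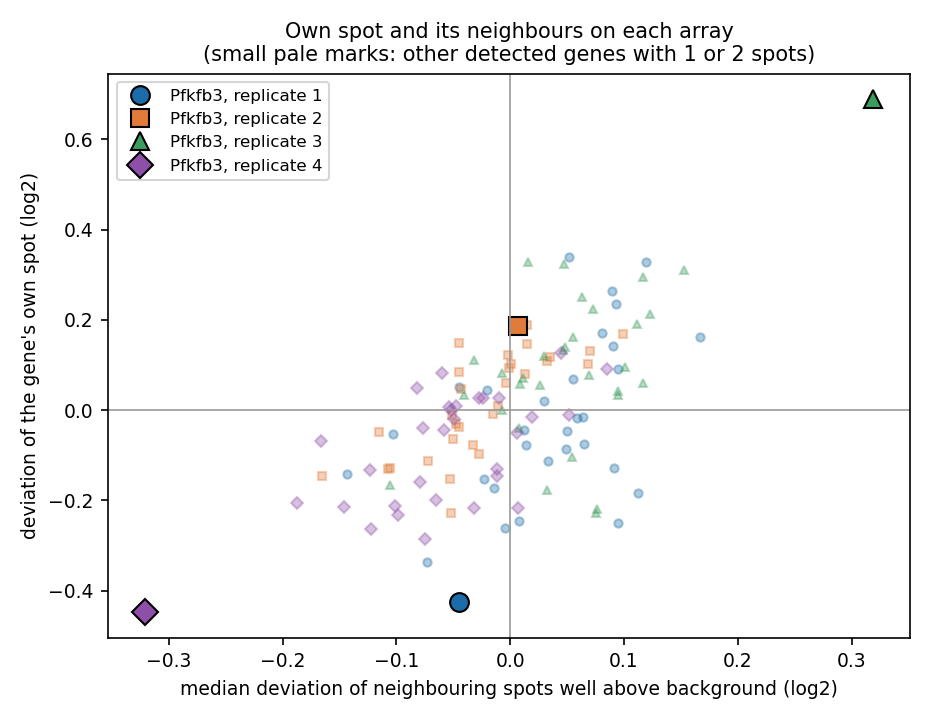
Deviation of each gene's spot from its 4-array mean (log2, vertical axis) against the median deviation of the spots around it that are well above background (log2, horizontal axis). Each point is 1 spot on 1 array, coloured by array, with Pfkfb3 drawn large and the other detected genes small and pale. Points rise from lower left to upper right, and Pfkfb3 on replicate 3 lies at 0.69 against 0.32 around it.

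Related genes of the same pathways outside the 44 were counted in the same way. Of other glycolytic genes 11 of 21 (52.4%) were detected on all 4 arrays, beside 50.8% of all named genes, including Adpgk, an ADP-dependent glucokinase (2.95 ± 0.08), and Pfkfb1 (3.07 ± 0.21), while Fbp1, Gapdhs, Pgk2, Pgam2 and Ldhc were detected on none. Of other sugar and monocarboxylate transporters 5 of 13 (38.5%) were, including the fructose transporter Slc2a5 (0.76 ± 0.16) and Slc2a9 (3.34 ± 0.11). Slc2a2, Slc2a3 and Slc2a4 were detected on none, so among Slc2a1, Slc2a2, Slc2a3 and Slc2a4 the detected transporter was Slc2a1. Of other pyruvate dehydrogenase genes 9 of 12 were, including Pdhb (2.29 ± 0.17) and Dlat (2.11 ± 0.10). Pdk4 was detected on no array. In the pentose phosphate pathway 7 of 9 further genes were, among them H6pd (-0.73 ± 0.12), while Tktl2 was detected on none.

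HIF regulators outside the set were detected for 11 of 13 genes, including the beta subunits Arnt (-0.65 ± 0.06) and Arnt2 (0.43 ± 0.22). Hif3a, a further alpha subunit, was detected on some arrays only. Other HIF target genes were detected for 16 of 32 (50.0%), near the 50.8% of all named genes, including Vegfb (3.60 ± 0.14) and Bnip3l (4.95 ± 0.07), while Vegfa, Epo, Cxcr4 and Loxl2 were among the 8 detected on none. Within the set, 19 of 20 HIF-1 targets were detected on all 4 arrays. These lists were chosen with earlier results known, and the counts were not tested against each other.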

How the data were processed

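The authors deposited 1 linear intensity per spot, background-subtracted and spatially detrended but not normalized between arrays, per the file headers. The submitters' processing notes name Agilent Feature Extraction 11.0.1.1. Left out were 750 to 1551 spots per array that carried a flag for non-uniformity or for being a population outlier. Per probe, the log2 intensities of the kept spots were averaged, and each array's 75th percentile over non-control probes was subtracted. A gene's level is that of its probe with the highest mean among probes measured on all 4 arrays. Probes were named through their RefSeq accession and the RefSeq gene table of GRCr8, which also gave the promoters. Per the file headers the grid follows rn4, whose coordinates were not used. Bright blocks are blocks of 16 by 8 spots in which over 10% of spots of unnamed probes exceed the other 3 arrays by at least 1 on the log2 scale. The 44 genes, the gene lists and the marker lists were chosen with earlier results of these data known. Each gene on the array is named with its values where it was detected on any array. From each other pathway list, the first 2 genes detected on all 4 arrays have values, except for 1 that is not reported here. All 4 arrays lie on 1 slide and share 1 scan, so neither could be tested as a batch. The number of arrays, 4, limits the precision, and no group test was possible with 1 group. Alternatives are in the closing section. Computation used Python 3.11.15, numpy 2.4.6, pandas 2.3.3, matplotlib 3.10.9, R 4.3.3 and limma 3.58.1, and the spread and outlier calculations were tested on simulated data.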

Additional observations from a re-analysis of the deposited data

Results flagged for a closer look

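Among the 38 detected genes, 1 had an array that stood apart from the other 3. For Pgam1 the level was 6.13 on replicate 2, and 6.27, 6.29 and 6.27 on replicates 1, 3 and 4. The gap between replicate 2 and the nearest array took up 0.888 of its range, above Dixon's critical value for 4 samples. Chance flags about 1 in 20 genes, and 5.35% of all detected genes were past that value. The range of Pgam1 was 0.15 on the log2 scale, or 1.11-fold, over 10 spots per array. Its ratio fell below the critical value in 6 other settings: 0.766 under quantile normalization, 0.726 with the left-out spots kept, 0.632 without bright regions, 0.447 under normexp, 0.42 scaled to the array median and 0.416 scaled to the percentile over detected probes. With the left-out spots kept the gene past the critical value was Tpi1 (0.935), and under normexp it was Car9 (0.883).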

How the results depend on the processing

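No paired analysis was possible because the samples form 1 group. The planned normexp correction on mean signals was not run, since the files used here hold median signals, and it was run on those instead, which was chosen after seeing the data. For the main results, 82 alternative values stayed within a set limit of the main value and 12 moved. For median SDs and deviations the limit was the main median SD, 0.160, which is wider than the main deviations themselves. A change of sign could thus stay within it, as on replicate 4, from -0.042 to 0.064 under normexp. The count of detected genes stayed between 34 and 40, and that of the other pathway lists between 52 and 70. Scaling to the array median gave a median SD of 0.404, against 0.39 over all detected genes, and 5 genes with an SD above 0.5. Median deviations were then -0.272, 0.497 and -0.300 on replicates 2 to 4. Those of all detected genes were -0.28, 0.46 and -0.28. Genes with an SD above 0.5 numbered 2 with no detection filter, which adds Egln3. Leaving out each replicate in turn gave 0 to 1 such genes, with 0 without replicate 3, and a median SD of 0.125 to 0.154. Genes with 1 array apart numbered 2 under quantile normalization, array-median scaling, the percentile over detected probes and the mean of all probes, and 0 without bright regions. Without bright regions, Pfkp and Aldoa had no level, and these and Pfkfb3 were no longer detected on all 4 arrays. The mean of all probes gave Pfkfb3 an SD of 0.37, and Hif1a one of 1.35, since its dim probe has no value on replicate 4. Other causes were not tested. Signals near background limit Egln3, Hif1an, Car9 and Aldoc.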
